A study of Mus musculus with 4 samples.

Results

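The IL-1 and IL-6 axis genes described here are 8 of the 32285 mouse genes counted in every library: the cytokines Il6, Lif and Il33, the receptor chains Il1r1, Il1rap, Il6st and Il6ra, and the IL-1 receptor antagonist Il1rn. They were chosen by name after results of the same libraries were known, so their levels are a description and support no test. They were followed in stromal and endothelial cell classes of the mouse femur, named from marker genes.

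Interleukin-1 signals through the receptor IL1R1 paired with the accessory chain IL1RAP, which recruits MYD88 and leads to NF-kB activation, while the antagonist IL-1RA, encoded by Il1rn, occupies IL1R1 without recruiting that chain. IL-33 is an alarmin stored in nuclei that uses another receptor, ST2, with the same accessory chain. Interleukin-6 binds IL6RA and the shared chain gp130, encoded by Il6st, and LIF binds its own receptor with gp130, in both cases activating JAK kinases and STAT3.

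The study compared 4 groups of 1 library each, all from C57BL/6 mice of genotype Rag2-/-gammac-/-, which lack T, B and NK cells, so no group has an intact lymphoid compartment. The control was untouched marrow, the sham group had PBS placed in the femur and was taken at day 40, and the graft groups carried DOHH2, a B-cell line established from a human follicular lymphoma, in the femur for 19 or 40 days (labelled early and late tumour stage). Flushed marrow and bone fragments were digested with enzymes, depleted of Cd45 and Ter119 positive cells and sorted as Cd31 negative, Cd51 and Cd200 positive stroma and as Cd31 and Sca1 positive endothelium before single-cell 3′ sequencing. Ages, the number of mice in a library and the day of the control are not given in the sources used here, and the mouse and the library cannot be told apart from the group. The sham and the day 40 graft share their day. Reads were counted on mouse genes only, so these counts do not give the cytokines of the human lymphoma cells. Cluster 18, led by Rbm8a2, Tubb3 and Bcl11a and with the B-cell genes Pax5, Ms4a1 and Cd79a among its leading genes, had 15, 0, 66 and 230 cells in the control, sham, day 19 and day 40 graft. It belongs to no stromal or endothelial class, and whether lymphoma cells read on mouse genes are part of it was not tested.

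The libraries held 18533482 to 72204599 UMIs, lowest in the control. The median kept cell had 3549 UMIs in the control, 9020 in the sham, 8606 in the day 19 graft and 9796 in the day 40 graft. Pairs of libraries shared 11 to 15 cell barcodes. The 28 clusters of 18281 cells gave LepR-like stroma, the perivascular stroma of marrow, as well as osteolineage-like, chondrocyte-like, fibroblast-like and pericyte-like cells, and sinusoidal-like and arterial-like endothelium. Cluster 6 held all 12 LepR stroma markers but failed the check of its leading genes, as did endothelial clusters 10 and 25, and these 3 are given by number. The leading genes at fault were Phex, Kit and Vwf, on the osteolineage, mast cell and basophil, and megakaryocyte lists. LepR-like cluster 7 passed with 6 of the 12 LepR stroma markers, none of them among its 10 leading genes. Mesenchymal stroma here pools the LepR-like, osteolineage-like, chondrocyte-like and fibroblast-like classes with cluster 6. The makeup of these pools differed by library: LepR-like cluster 7, led by Heyl, Col8a1 and Tnfsf11, had 37, 44, 775 and 1184 cells in the control, sham, day 19 and day 40 graft libraries, and cluster 6 had 159, 1023, 429 and 119. LepR-like cluster 2 had 1172 of the 1645 control cells of its class, and 10, 17 and 3 cells in the sham, day 19 and day 40 graft. Sinusoidal-like cluster 9 had 972, 97, 121 and 17 cells in the 4 libraries and sinusoidal-like cluster 16 had 63, 633, 464 and 101. The sort could set such shares.

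All 8 members matched the RefSeq promoter table (build GRCm38.p6), with 12 start-site windows of 300 bases. They were searched on both strands for an NF-kB motif (GGG, any pair of bases, TT, any base, CC), an AP-1 motif (TGANTCA), a C/EBP motif (TTNNGCAA) and a STAT motif (TTCNNNGAA), of which none is a part of another. Among all 32851 windows of the table, 4.79% held the NF-kB motif, 7.81% the AP-1 motif, 10.8% the C/EBP motif and 8.30% the STAT motif. Printed are the 250 bases before the start of Il6, the one member with 3 kinds of match, and before the first starts of Il1rn and Il1r1, the antagonist and receptor whose levels went opposite ways in day 40 LepR-like stroma. All 3 lie on the plus strand, at chr5:30012864-30013113, chr2:24336610-24336859 and chr1:40224830-40225079, and capitals mark the matches.
Il6: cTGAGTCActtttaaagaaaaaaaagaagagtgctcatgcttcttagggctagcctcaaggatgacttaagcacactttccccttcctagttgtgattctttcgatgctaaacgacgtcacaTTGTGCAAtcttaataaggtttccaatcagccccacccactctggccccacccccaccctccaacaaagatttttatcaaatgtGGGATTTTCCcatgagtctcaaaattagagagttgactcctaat
Il1rn: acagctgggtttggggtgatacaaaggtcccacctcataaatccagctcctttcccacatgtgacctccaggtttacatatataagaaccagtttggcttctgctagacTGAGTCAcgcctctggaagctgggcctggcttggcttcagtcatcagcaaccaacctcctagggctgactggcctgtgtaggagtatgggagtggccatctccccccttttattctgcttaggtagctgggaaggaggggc
Il1r1: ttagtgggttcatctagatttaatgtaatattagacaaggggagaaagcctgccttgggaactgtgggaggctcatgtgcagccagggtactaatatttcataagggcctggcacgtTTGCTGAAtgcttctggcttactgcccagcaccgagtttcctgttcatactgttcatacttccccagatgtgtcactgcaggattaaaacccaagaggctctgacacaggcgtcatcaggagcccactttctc

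In the Il6 window the NF-kB match GGGATTTTCC began 44 bases before the start, the C/EBP match 128 and the AP-1 match 249. The Il1rn window held an AP-1 match 141 bases before its start, and an NF-kB match GGGTTTTTCC lay 51 bases before a downstream Il1rn start that is not printed. The Il1r1 window held a C/EBP match 133 bases before the start. Lif had an AP-1 match and the second Il33 window a C/EBP match, whereas Il1rap, Il6st and Il6ra had none of the 4 motifs and no window held the STAT motif. A match is a run of letters and not a bound site, and 3′ libraries do not tell which start was used. In the mouse annotation of build mm10, Il1rn spans chr2:24336853-24351494 and Il1r1 chr1:40225080-40317257, both on the plus strand. Il1rap and Il6ra each overlap an antisense gene, and Il1r1 overlaps an unclassified transcript on its own strand, so that a small part of their UMIs could be shared.

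**Figure D1:**
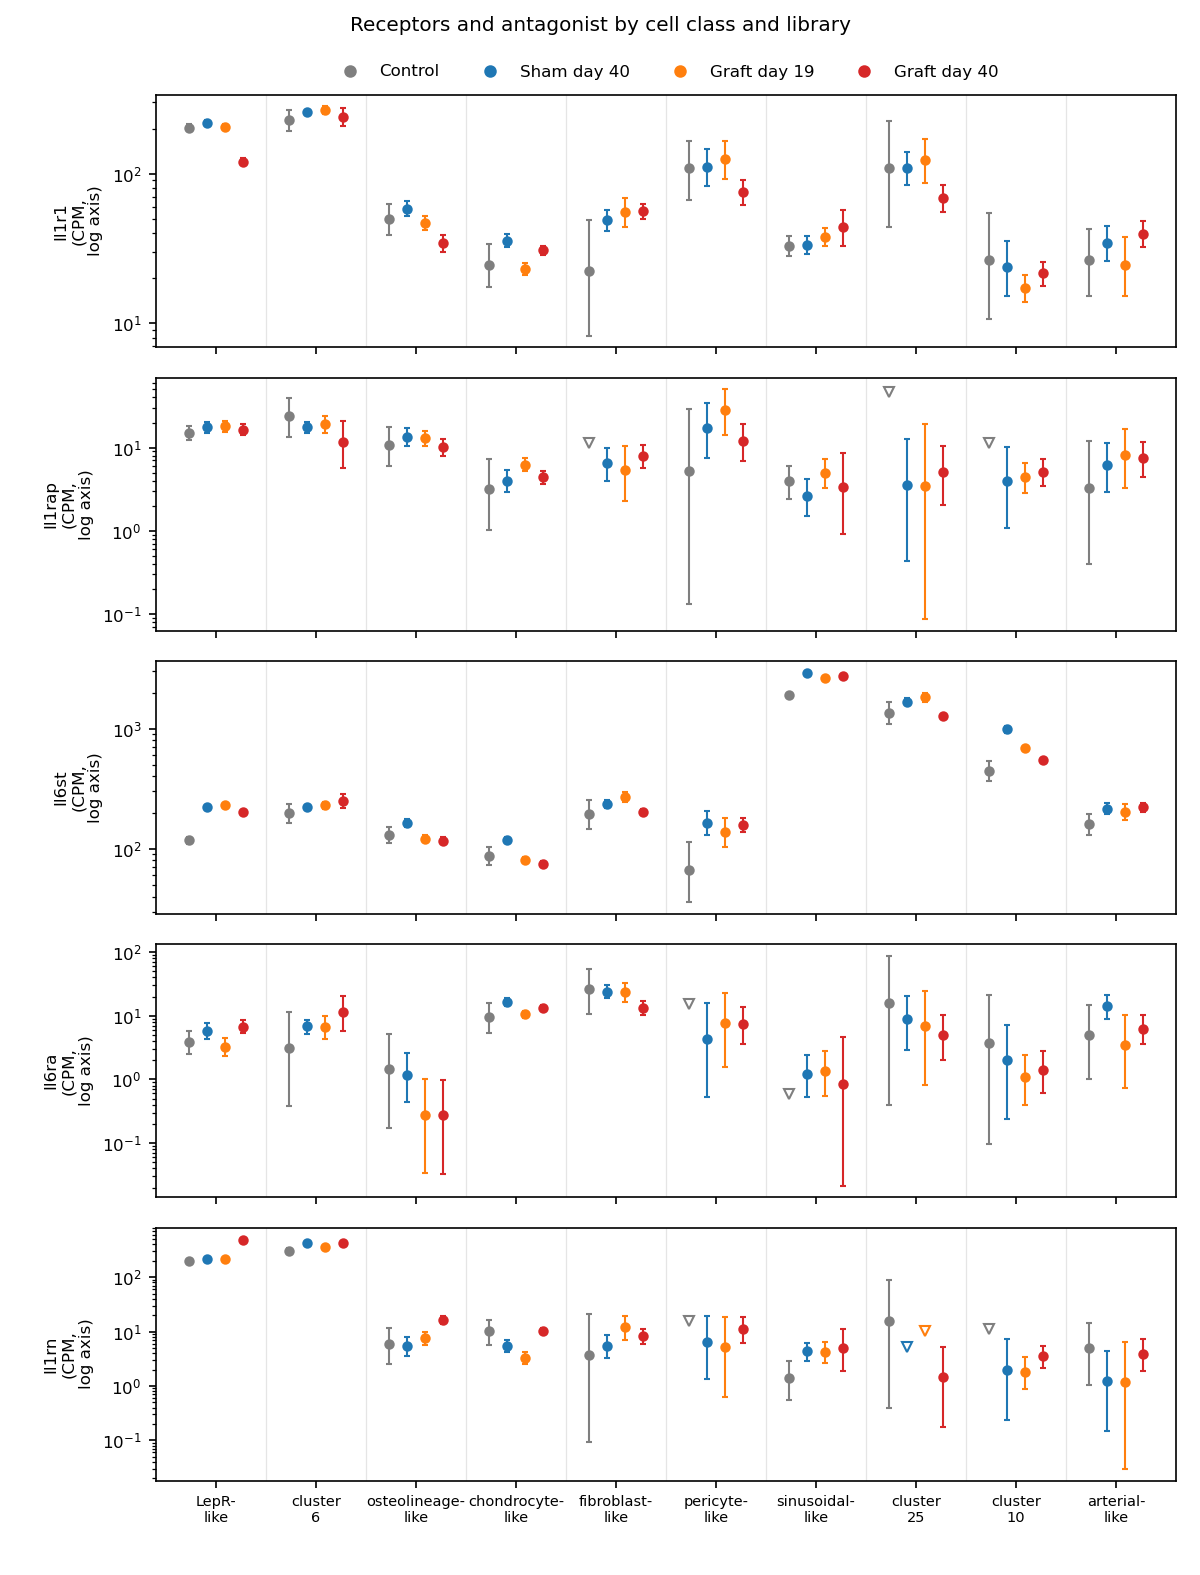
UMIs scaled to a class total of 1000000 (CPM, log axes) for Il1r1, Il1rap, Il6st, Il6ra and Il1rn in 10 cell classes and 4 libraries. Points are summed levels, bars exact 95% counting intervals, and open triangles mark classes with 0 UMIs, drawn at the level of 3 UMIs; Il6st is highest in sinusoidal-like endothelium and Il1rn in the LepR-like class and cluster 6.

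Il6 was close to absent from stroma and endothelium in all 4 libraries. It gave 251 UMIs in 86 of 18281 cells: 51 in the control, 37 in the sham, 122 in the day 19 graft and 41 in the day 40 graft. Cluster 20, residual blood cells led by S100a8 and Ngp, held 29, 2, 99 and 0 of these, and 1 cell alone gave 37 in the day 19 graft. Mesenchymal stroma held 11, 29, 7 and 14 Il6 UMIs, or 1.07, 0.76, 0.16 and 0.27 CPM (UMIs scaled to a class total of 1000000), and 20 of the 29 in the sham came from 1 cell of cluster 6. All endothelial clusters held 8, 5, 16 and 19 Il6 UMIs, of which 8, 3, 9 and 5 lay in sinusoidal-like and arterial-like cells and 0, 2, 6 and 10 in endothelial cluster 10. Too few UMIs were counted to compare Il6 between groups within any stromal or endothelial class, and none of the ligands reached the minimum of 5 CPM set for a call in either pool.

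Lif, a cytokine of the IL-6 family, was rarer still, with 6, 5, 27 and 42 UMIs in the control, sham, day 19 and day 40 graft libraries. Of its 80 UMIs, 79 were in mesenchymal stroma and 1 in endothelium. LepR-like stroma gave 4, 0, 9 and 24 Lif UMIs, and 23 of the 24 in the day 40 graft were in cluster 7, where they made 2.22 CPM against 1.24 CPM in the day 19 graft. In the day 19 graft 11 Lif UMIs were in chondrocyte-like cluster 1, all from 2 cells with 7 and 4. The 0 Lif UMIs of the sham LepR-like class allow a level of up to 0.323 CPM, that of 3 UMIs.

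Il33 lay in fibroblast-like cells, which held all but a few of its 303 UMIs, found in 95 cells of the whole series. Fibroblast-like Il33 was 134 CPM in the control (36 UMIs, 60 cells), 17.4 CPM in the sham (54 UMIs, 234 cells), 52.7 CPM in the day 19 graft (79 UMIs, 138 cells) and 23.3 CPM in the day 40 graft (123 UMIs, 290 cells). Of all fibroblast-like genes, 16.4% were called in the sham over the control. Il33 of the control was above each of the other libraries, and no interval of a ratio to it reached 1: the sham was 7.70-fold lower, the day 19 graft 2.55-fold lower and the day 40 graft 5.76-fold lower. Within cluster 23, led by Angptl7 and the tendon genes Kera, Tnmd and Scx, Il33 was 227, 42.5, 112 and 102 CPM, with a UMI in 41.4%, 15.5%, 32.7% and 21.1% of 29, 84, 52 and 71 cells. In cluster 21, the other fibroblast-like cluster, it was 55.3, 5.69, 17 and 11 CPM, and 1 day 40 graft cell held 37 of the 50 UMIs there. LepR-like stroma had 2, 0, 0 and 0 Il33 UMIs and the endothelial clusters 1, 0, 1 and 0. Il1rl1, which encodes the IL-33 receptor ST2, did not exceed 4.55 CPM in fibroblast-like cells, and was highest in cluster 20, at 4.3, 10.1, 22.9 and 0 CPM.

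**Figure D2:**
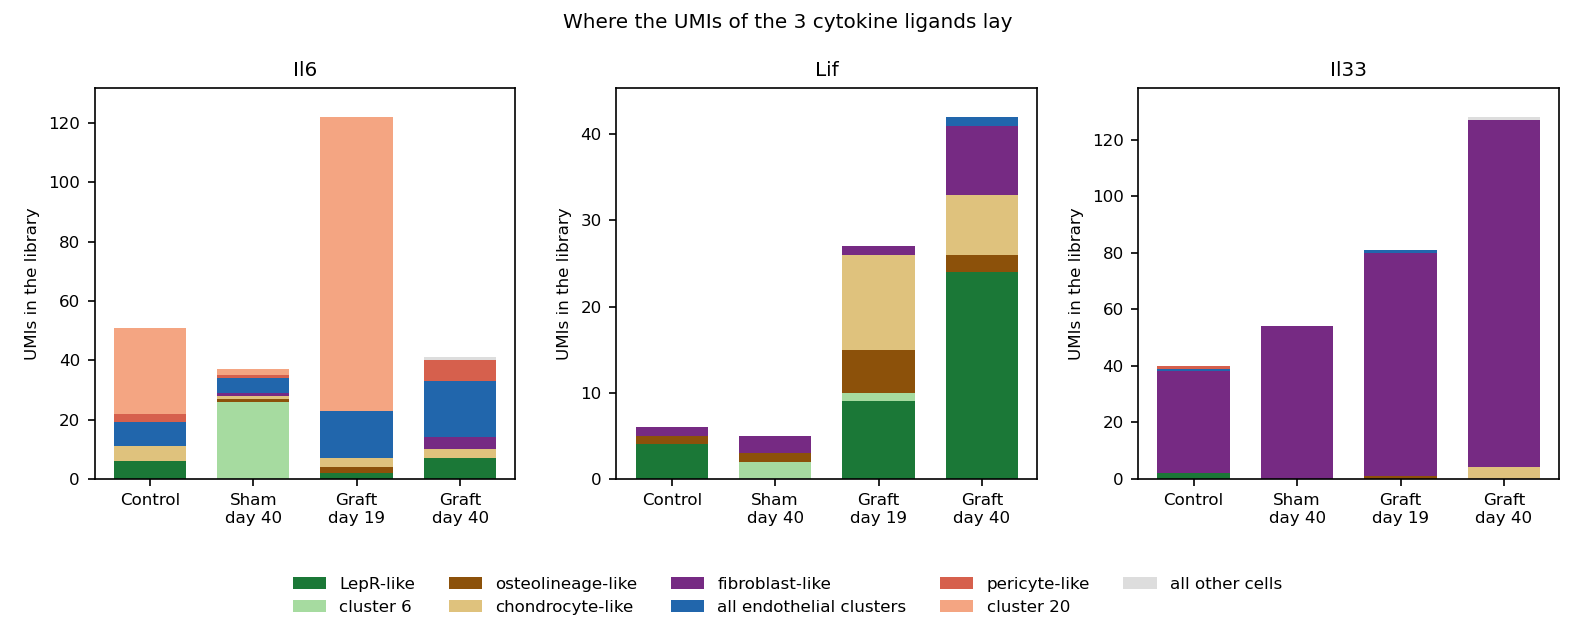
Stacked UMIs of Il6, Lif and Il33 (vertical axes, counts) in each of the 4 libraries, coloured by the cells that held them. Il6 UMIs of the control and day 19 graft lay mostly in cluster 20, Lif UMIs of the day 40 graft in LepR-like stroma, and Il33 UMIs in fibroblast-like cells.

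Il1r1, the signalling receptor of IL-1, had 90.1% of its 15581 UMIs in mesenchymal stroma and 8.16% in the endothelial clusters. That stroma also held most UMIs of all genes: 10306397 of 16818725 in the control and 38079224 of 48947356 in the sham. In the day 19 graft it held 44274754 of 58360822, and in the day 40 graft 52247813 of 68618172. The Il1r1 level was highest in cluster 6, at 227, 258, 266 and 240 CPM in the control, sham, day 19 and day 40 graft. LepR-like stroma was next, in a range that did not overlap that of cluster 6. Pericyte-like cells (75.2 to 125 CPM) and endothelial cluster 25 (68.6 to 123 CPM) followed and overlapped each other. Their highest values, in the day 19 graft, also exceeded the LepR-like value of the day 40 graft. Osteolineage-like (34.2 to 58.2 CPM), fibroblast-like (22.4 to 56.3), sinusoidal-like (32.8 to 43.9), arterial-like (24.6 to 39.4) and chondrocyte-like cells (23.1 to 35.7) overlapped as well. Cluster 10 held 17.2 to 26.5 CPM and overlapped the fibroblast-like, arterial-like and chondrocyte-like ranges.

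In LepR-like stroma the Il1r1 level of the day 40 graft stood apart from the other 3 libraries, which were alike in level though drawn mostly from different clusters. Il1r1 was 203 CPM in the control (interval 192 to 214), 217 in the sham (208 to 227), 206 in the day 19 graft (197.5 to 215) and 120 in the day 40 graft (114 to 127). The day 40 graft was 1.81-fold lower than the sham (1.69 to 1.94; log2 -0.85) and lower than the day 19 graft by a ratio of 0.584. An Il1r1 UMI was found in 47.2%, 73.0%, 67.4% and 53.9% of LepR-like cells, at median depths of 3770, 8072.5, 7094 and 7865.5 UMIs. With each cell thinned to 4000 UMIs, which left 716, 915, 1176 and 1140 cells, the shares were 51.7%, 53.9%, 53.0% and 36.7%. In summed class values, fewer cells expressing a gene and less RNA per cell cannot be told apart.

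The lower Il1r1 level was measured in cluster 7 and not in the other LepR-like clusters. In cluster 7 Il1r1 was 189, 200, 201 and 116 CPM in the control, sham, day 19 and day 40 graft, and the day 40 graft was below the day 19 graft by a ratio of 0.575 (0.531 to 0.622) over 1184 and 775 cells. Without cluster 7 the LepR-like class held 203, 218, 213 and 202 CPM. Cluster 6 held 240 CPM in the day 40 graft against 258 in the sham, and cluster 5 held 200 against 211. The 12 LepR stroma markers summed to 58006, 59154, 46733 and 35691 CPM in the LepR-like class, also lowest in the day 40 graft, while the chondrocyte list summed to 127, 332, 422 and 632 CPM and the fibroblast list to 513, 375, 498 and 879 CPM. Their part in the Il1r1 difference was not tested.

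In pooled mesenchymal stroma Il1r1 was 152, 142, 93.3 and 56.4 CPM. At day 40 the graft was 2.51-fold below the sham (2.40 to 2.63; log2 -1.31) and the day 19 graft 1.63-fold below the control (log2 -0.70). A gene was called higher or lower where the ratio was at least 1.5-fold, its interval excluded 1 and the mean of both libraries was at least 5 CPM. In the day 40 comparison 2 of the 5 members tested were called, Il1r1 and Il6st, both lower, where 16.9% of all genes were called in either direction and 10.8% lower. In the day 19 comparison with the control 2 of 5 were called, Il1r1 and Il1rn, both lower, against 32.6% of all genes in either direction and 13.6% lower. These pooled values depended on the makeup of the pool. With each class weighted as in the comparator library, the log2 ratio of Il1r1 was -0.37 at day 40 and 0.04 at day 19, and Il1rn went from -0.70 to 0.18 at day 19. Averaged over cells, with each cell weighted alike, the day 19 ratios were -0.13 for Il1r1 and -0.06 for Il1rn and neither was called.

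Osteolineage-like Il1r1 was 49.9, 58.2, 46.7 and 34.2 CPM, and the day 40 graft was 1.70-fold below the sham. In that comparison 16.2% of all osteolineage-like genes were called lower and 2.83% higher, at a median log2 ratio of -0.25. Many genes of this class were thus lower together with Il1r1. In endothelial cluster 25, with 84 sham and 155 day 40 graft cells, Il1r1 was 109, 109, 123 and 68.6 CPM. The day 40 graft was lowest there, by a ratio of 0.627 to the sham. Sinusoidal-like endothelium held 32.8, 33.3, 37.8 and 43.9 CPM and was not called. Fibroblast-like Il1r1 was 22.4 CPM in the control from 6 UMIs, and 48.8, 55.3 and 56.3 CPM in the sham, day 19 and day 40 graft.

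Il1rap, the accessory chain shared by the IL-1 and IL-33 receptors, was low, with 1786 UMIs in all. Mesenchymal stroma, which held most UMIs of every library, had 85.7% of the Il1rap UMIs. Il1rap was 15.1, 17.6, 18 and 16.4 CPM in LepR-like stroma, and 22.2, 19.6, 19.3 and 15.7 CPM in cluster 7. Osteolineage-like cells held 10.8, 13.5, 13 and 10.1 CPM. In these 3 groups of cells no library stood apart. The cluster 7 values of the control and sham rest on few Il1rap UMIs, out of 89970 and 409193 UMIs of all genes. They could not show a modest difference. Pooled mesenchymal Il1rap was 12.8, 12.3, 11.3 and 8.23 CPM and was just short of a call in the day 40 comparison, in which it was called lower under 6 alternative settings. Pericyte-like cells held 5.2, 17.3, 28.0 and 11.9 CPM from few UMIs.

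Il6st, which encodes gp130, was a gene of sinusoidal endothelium, where it reached a UMI in at least 99.2% of cells thinned to 4000 UMIs. Sinusoidal-like Il6st was 1923, 2894, 2622 and 2750 CPM in the control, sham, day 19 and day 40 graft. Cluster 25 came next at 1361, 1681, 1822 and 1266 CPM, then cluster 10 at 446, 985, 691 and 545 CPM. The ranges of these 3 did not overlap, and the other named stromal, pericyte-like and endothelial classes were lower, between 67.1 CPM in control pericyte-like and 272 CPM in day 19 fibroblast-like cells. Arterial-like endothelium, at 160, 216, 202 and 221 CPM, was in the range of stroma.

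Pooled sinusoidal-like and arterial-like endothelium held 1736, 2359, 2280 and 1021 CPM of Il6st, and the day 40 graft was 2.31-fold below the sham (2.23 to 2.39; log2 -1.21). Il6st was 1 of 2 members tested that was called there, where 9.02% of all genes were called lower and 19.1% in either direction. Within sinusoidal-like cells, where 6.42% of all genes were called in either direction, the log2 ratio was -0.07 and within arterial-like cells the level was 221 against 216 CPM, so neither class was called, while sinusoidal-like cells numbered 1065, 730, 585 and 119 and arterial-like cells 328, 325, 140 and 411. With both classes weighted as in the sham the log2 ratio of the pool was -0.07. The Sca1 gate of the sort could set these numbers, which was not tested. In the day 19 comparison with the control neither Il6st nor Il1r1 was called in the endothelium, where 22.7% of all genes were.

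**Figure D3:**
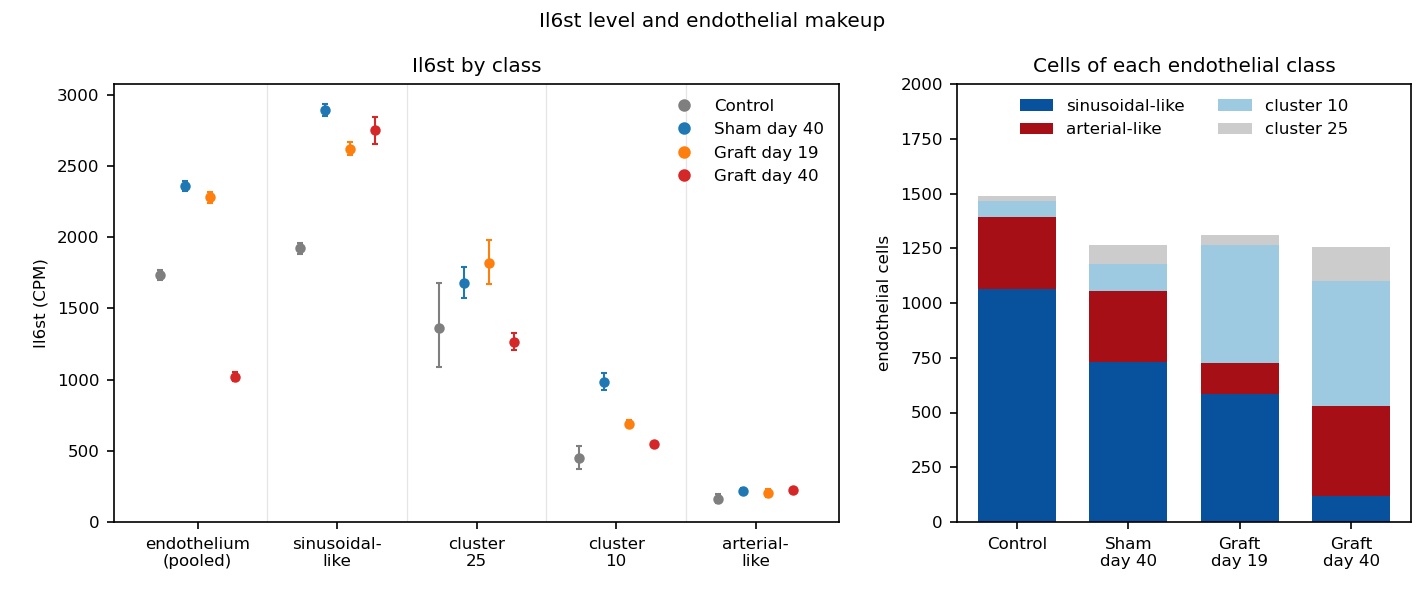
Left, Il6st in CPM (linear axis, exact 95% counting intervals) in pooled endothelium, its 2 named classes and clusters 25 and 10, by library; right, the number of cells of each class. The pooled day 40 graft value of 1021 lies below the other libraries, while the sinusoidal-like day 40 graft value of 2750 lies among them and rests on 119 cells.

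Cluster 10, led by Piezo2, Ramp3 and Pcdh17, carried all 12 pan-endothelial markers, 6 of the 12 sinusoidal markers and 3 of the 12 arterial ones. The cluster numbered 73 and 125 cells in the control and sham and 539 and 572 in the grafts. Its Il6st level was highest in the sham and lowest in the control. The day 40 graft was below the sham by a ratio of 0.554 (0.515 to 0.595) and the day 19 graft 1.55-fold above the control (1.29 to 1.88), and the sham was itself 2.21-fold above the control. Which comparator was used thus set the direction. All genes called in cluster 10 made up 10.2% in the day 40 comparison and 15.4% in the day 19 comparison. When the sinusoidal-like class was drawn under a looser cell filter, without doublet removal, at resolution 2.0 or with the members among the clustering genes, its day 40 log2 ratio lay between -0.99 and -1.54. Between 255 and 566 of the 572 day 40 cells of cluster 10, and between 59 and all 125 of the sham cells, were then named sinusoidal-like.

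In stroma Il6st was lower than in sinusoidal-like endothelium, and it also differed between libraries. LepR-like Il6st was 117, 221, 230 and 202 CPM, the control being lowest, so that the sham was 1.88-fold and the day 19 graft 1.96-fold above it. In that class 42.1% of all genes were called in the day 19 comparison and 44.9% in the sham over the control, with all-gene medians of 0.30 and 0.26 on the log2 scale, so many genes were higher than in the shallow control. Over mesenchymal stroma Il6st was 121, 186, 143 and 124 CPM, 1.5-fold lower in the day 40 graft than in the sham (log2 -0.58), close to the threshold of the call. Against the control in place of the sham the log2 ratio was 0.03. Chondrocyte-like Il6st was 87.1, 118, 81.4 and 75.3 CPM and was called lower in the day 40 graft than in the sham (log2 -0.64), where 8.31% of all genes were called in either direction.

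Il6ra, the IL-6 binding chain, was scarce in the cells with most gp130. Sinusoidal-like cells, with the most Il6st, held no more than 1.4 CPM of Il6ra in any library. Its level was highest in cluster 13 of the chondrocyte-like cells, at 60.4, 107, 67.9 and 83.2 CPM from 6, 78, 75 and 132 UMIs in 11, 47, 57 and 81 cells. Fibroblast-like cells held 26.1, 23.9, 23.3 and 13.3 CPM, the day 40 graft being lowest, at a ratio of 0.555 to the sham (0.394 to 0.780), where 23.6% of all genes were called in either direction. LepR-like stroma held 3.9, 5.8, 3.3 and 6.7 CPM and osteolineage-like cells at most 1.45 CPM. Arterial-like endothelium held 5.0, 14.2, 3.5 and 6.2 CPM of Il6ra from 3 to 23 UMIs.

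Il1rn, the antagonist, lay in the same marrow stroma as its receptor, with 98.6% of its 18012 UMIs in mesenchymal stroma. It was 194 CPM in control LepR-like stroma (interval 184 to 205), 213 in the sham (203 to 222), 220 in the day 19 graft (211 to 229) and 488.5 in the day 40 graft (475.5 to 502). The day 40 graft was 2.30-fold above the sham (2.18 to 2.42; log2 1.20) and 2.22-fold above the day 19 graft, and the other 3 libraries lay close together. Cluster 6 held 304, 418, 359 and 428 CPM and did not single out the day 40 graft. Every other mesenchymal, pericyte-like or endothelial class held at most 16.5 CPM of Il1rn. In LepR-like stroma 1 of 5 members tested was called higher and 1 lower in the day 40 comparison, where 8.61% of all genes were called higher and 5.27% lower.

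The share of LepR-like cells with an Il1rn UMI was 31.2%, 45.1%, 44.9% and 62.2%. Thinned to 4000 UMIs per cell it was 36.0%, 35.3%, 37.6% and 54.6%, and thinned to 2000 it was 22%, 22.9%, 25.2% and 40.3%. In pooled endothelium, where Il1rn stayed below 5 CPM, the unthinned shares were 0.65%, 2.09%, 2.07% and 2.45% at median depths of 3486, 6946, 8133 and 5527 UMIs. Thus the day 40 graft was highest by level and by share at each depth. The 12 macrophage markers summed to 91.0, 44.4, 38.9 and 38.2 CPM in LepR-like stroma, with Adgre1 and Vsig4 at 0 in every library, and the 10 neutrophil markers to 42.7, 24.1, 34.8 and 13.1 CPM; both sums were highest in the control. The immediate early genes, which answer to digestion as well as to cytokines, summed to 2438, 3159, 5664 and 5177 CPM, and their part in the Il1rn level was not tested.

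Cluster 7 held most of the antagonist of the day 40 graft: 5168 of its 5357 LepR-like Il1rn UMIs. Its level was 200 CPM in the control, 264 in the sham, 257 in the day 19 graft and 499 in the day 40 graft. The day 40 graft was 1.94-fold above the day 19 graft (1.83 to 2.05) and 1.89-fold above the sham, whose value rested on 44 cells with 82.4% of the UMIs in 10 of them. The members had been left out of the clustering, and Il1rn ranked among the 10 leading genes of this cluster. That ranking pools the libraries, and 1184 of the 2040 cells of cluster 7 came from the day 40 graft. In the control, sham and day 19 graft cluster 6 held more Il1rn than cluster 7. In cluster 7, 4.6% of all genes were called higher and 5.08% lower in the day 40 comparison. Other LepR-like clusters also held more Il1rn in the day 40 graft, from fewer cells: cluster 5 had 135, 173, 157 and 314 CPM, the last from 45 cells, and cluster 8 had 116, 187, 181 and 323 CPM, the last from 71 cells. Without cluster 7 the class held 194, 210, 167 and 313 CPM, a day 40 ratio of 1.49 (1.27 to 1.73), just short of a call.

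The makeup of the class moved the size of the LepR-like Il1rn difference. With cluster 6, rich in the sham, counted as LepR-like, the levels were 319 CPM in the sham and 484 in the day 40 graft, a log2 ratio of 0.60 that was still called. With a looser cell filter of 200 genes, 500 UMIs and 20% mitochondrial UMIs and the clusters drawn anew, the log2 ratio was 0.46 and was not called. The LepR-like class then also took in 1021 of the 1023 sham cells and all 119 day 40 cells of cluster 6, so the filter and the makeup changed together. With the clusters weighted as in the sham the ratio was 0.53, again not called. That weighting also turned the Il1r1 ratio to 0.15, but it leans on clusters with 3 cells in the day 40 graft. Over all mesenchymal stroma, where chondrocyte-like cells numbered 336, 501, 843 and 1103, Il1rn was 143, 163, 87.2 and 119 CPM and was not higher in the day 40 graft.

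Outside LepR stroma Il1rn was low, with the day 40 graft highest among osteolineage-like cells at 5.78, 5.35, 7.62 and 16.5 CPM, 3.09-fold above the sham (2.02 to 4.88), where 19% of all genes were called in either direction. Chondrocyte-like cells held 10.1, 5.48, 3.30 and 10.4 CPM, the control and the day 40 graft being equally high. Pooled endothelium held 1.75, 3.70, 3.81 and 4.27 CPM. Cluster 20, the residual blood cells, held 4.3, 20.2, 18.8 and 85.1 CPM of Il1rn from 1, 14, 14 and 17 UMIs.

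Counted as molecules, which needs no correction for gene length in 3′ libraries, LepR-like stroma held 0.957 Il1rn UMIs per Il1r1 UMI in the control (0.885 to 1.04), 0.978 in the sham (0.919 to 1.04), 1.07 in the day 19 graft (1.01 to 1.13) and 4.06 in the day 40 graft (3.82 to 4.32). This ratio was chosen after the values were seen. In cluster 7 it was 1.06, 1.32, 1.28 and 4.32, in cluster 5 0.621, 0.817, 0.778 and 1.57, and in cluster 6 1.34, 1.62, 1.35 and 1.79. Each was highest in the day 40 graft, by far the most in cluster 7. In cluster 6 the day 40 graft interval (1.52 to 2.11) took in the sham value. Among osteolineage-like cells it was 0.116, 0.0918, 0.163 and 0.482. UMIs of different genes may be captured with different efficiency, so only the order of libraries can be read.

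**Figure D4:**
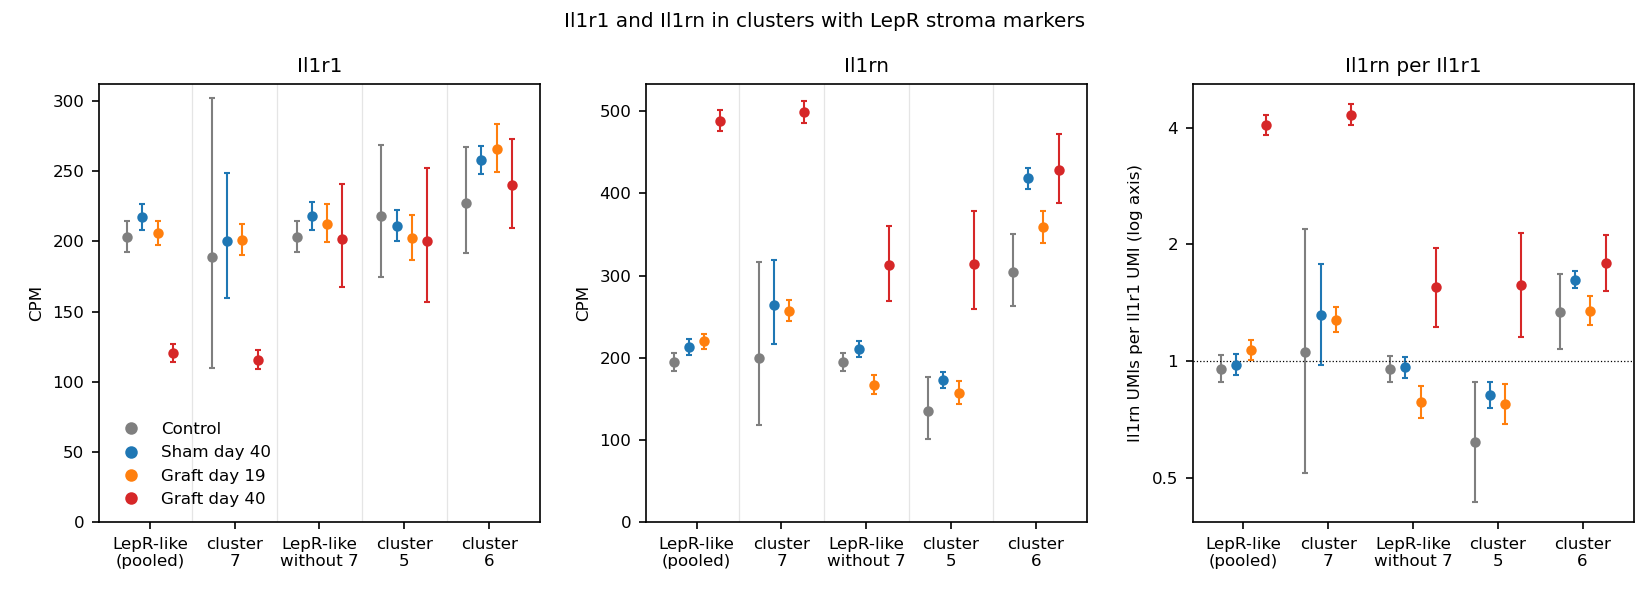
Il1r1 and Il1rn in CPM (linear axes) and Il1rn UMIs per Il1r1 UMI (log axis, dotted line at 1) in LepR-like stroma, its cluster 7, the class without cluster 7, cluster 5 and cluster 6; colours are the 4 libraries and bars exact 95% counting intervals. In the pooled class and in cluster 7 the day 40 graft is lowest for Il1r1 and highest for Il1rn; without cluster 7 only the Il1rn difference remains visible.

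Cells with a receptor UMI had an antagonist UMI about as often as cells without one. In LepR-like cells thinned to 4000 UMIs, 36.2% of control cells with an Il1r1 UMI also had an Il1rn UMI, against 36.4% of those without. The pairs were 38.4% and 34.6% in the sham, 40.9% and 35.0% in the day 19 graft and 53.8% and 56.4% in the day 40 graft. Cells with both made up 18.7%, 21.5%, 21.3% and 19.9%.

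The ligands that these receptors answer to were sought in the residual mouse blood cells as well. Il1b, the secreted form of IL-1 induced in myeloid cells, was 112, 204, 132 and 4231 CPM in cluster 20, from 13, 32, 44 and 26 cells, and below 1 CPM in each stromal and endothelial class. Osm, another gp130 ligand, was 90.3, 60.7, 331 and 320 CPM there, and the decoy receptor gene Il1r2 was 12.9, 34.7, 43.0 and 205 CPM. These 3 genes were chosen after their values were seen. Blood cells had been depleted before the sort, so the level in marrow as a whole is not given by these cells. Cluster 20 is a mixture, with 6 neutrophil, 5 macrophage and 2 lymphoid markers. It held 232491, 692080, 743527 and 199697 UMIs in the control, sham, day 19 and day 40 graft. Whether its mix of cells differed between libraries was not tested.

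The other genes of both pathways were read as lists in LepR-like stroma of the day 40 graft against the sham. In that comparison 13.9% of all genes were called in either direction at a median log2 ratio of 0.07. The medians of the receptor, signalling and target lists lay between -0.16 and 0.06. Both target lists held a greater share of called genes than all genes did, with calls in both directions. The lists were chosen with earlier results known and had only 9 and 20 genes measured, so these shares support no test. Of 22 IL-1 signalling genes measured, 1 was higher and none lower: Irak2, a kinase that extends IL-1 signalling, at 19.7, 21.5, 26.3 and 38.9 CPM. Within cluster 7 Irak2 was 22.2, 26.9, 29.5 and 39.5 CPM and was not called. The sham held 44 cells and 409193 UMIs in cluster 7, against 1078 cells and 9277356 UMIs in the class. A difference of the same size is therefore called less readily in cluster 7. Of the 22 genes none was higher there and 1 was lower, the kinase gene Irak1, named after its values were seen. Of 20 IL-1 target genes 9 were measured, 3 being higher and 1 lower. Ccl2, the monocyte chemokine, was 129, 31.5, 66.9 and 134 CPM, so the control was as high as the day 40 graft, and Icam1, an adhesion molecule, was 40.6, 33.7, 23.4 and 21.3 CPM.

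On the IL-6 side, 1 of 11 ligand genes was measured and higher, Clcf1, named after its values were seen, at 5.75, 3.66, 5.27 and 6.57 CPM. Within cluster 7 it was 0, 7.33, 6.06 and 6.18 CPM, and none of 3 ligand genes measured was called. The control and sham values there rest on 37 and 44 cells, with 89970 and 409193 UMIs of all genes. Of 8 receptor genes 5 were measured and 1 was lower, Lifr, the LIF receptor, at 268, 540, 453 and 330 CPM. Of 17 signalling genes none was higher and 3 were lower, among them Stat5a at 26.7, 38.3, 31.2 and 22.2 CPM. Of 22 target genes 20 were measured, 3 being higher and 4 lower, with a median of 0.03. Timp1, a metalloproteinase inhibitor, was 136, 63.9, 158 and 293 CPM and highest in the day 40 graft. The acute-phase genes Serpina3n, at 356, 143, 83.8 and 47.6 CPM, and Hp, which encodes haptoglobin and is also one of the LepR stroma markers, at 8910, 4456, 3032 and 2594 CPM, were both highest in the control and lowest in the day 40 graft. By contrast 17 of 29 immediate early genes were higher and none lower, with Jun, Ier2 and Klf4 among them, at a median of 0.63. Within cluster 7, with its few sham cells, the count was 7 higher and 2 lower of 30, at a median of 0.20. Jun and Klf4 were higher there, and Fos and Fosb, also named after their values were seen, were lower. The smaller count of calls cannot be told apart from the smaller number of UMIs.

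In pooled endothelium at day 40, where 19.1% of all genes were called in either direction and 9.02% lower, some genes of the gp130 pathway were lower than in the sham. Of 6 receptor genes measured 2 were lower, Il6st and Il31ra, of 17 signalling genes 4 were lower, at a median of -0.10, and of 17 measured targets 8 were lower and 2 higher, at a median of -0.29. Of 30 immediate early genes 13 were lower and none higher in the same pool, at a median of -0.47, and their part in the target counts was not tested. Socs3, the feedback inhibitor induced by STAT3, was 115, 75.9, 78.0 and 44.0 CPM, and Jak1, the kinase bound to gp130, was 803, 951, 872 and 448 CPM. Within sinusoidal-like cells, where 6.42% of all genes were called, none of the receptor genes and none of 16 targets measured were called, while 2 of 17 signalling genes were lower. These were Tyk2, a Janus kinase, and Socs1, a feedback inhibitor, named after their values were seen. Of 30 immediate early genes 8 were lower there and none higher. The 12 sinusoidal markers summed to 17598, 15048, 14364 and 5811 CPM in the pool and the 12 arterial markers to 1603, 1833, 1692 and 5226 CPM, moving with these counts. In cluster 10, 3 receptor genes were lower: Il6st, Lifr at 129, 313, 133 and 83.5 CPM, and Osmr, the oncostatin M receptor, at 87.0, 151, 71.9 and 69.9 CPM. There Ccl2 was higher, at 0, 8.0, 37.9 and 52.1 CPM, and immediate early genes were lower for 15 genes and higher for none.

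The genes with the pattern most like each member were taken over 28 combinations of class and library among 10318 genes, which share libraries and depth. Il1r1 was most like Klhdc8b, Ilvbl and Syde1 (r = 0.93 each), and Il1rn most like Pdzrn4 (0.91), Hsf2bp (0.88) and Ptchd4 (0.88). Il6st was most like Xbp1 (0.96), Slc25a51 (0.94) and Bok (0.94). Il6ra was most like Mbnl1 (0.88), Tubb2b (0.85) and Car5b (0.83), and Il33 most like Mstn, Crabp2 (both 0.95) and Clec3b (0.94). Il1r1 and Il1rn, which lay in the same classes, reached 0.52 with each other.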

How the data were processed

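The deposited gene-by-barcode matrices hold whole-number counts of unique molecular identifiers (UMIs), made by the authors with Cell Ranger 5.0.0 per the file headers, whereas the submitters' processing notes name Cell Ranger 3.1.0 and mm10. Reads were assigned to 32285 mouse genes. The 2 antibody-derived features each in the day 40 sham and day 40 graft libraries were left out. Cells with at least 500 genes, 1000 UMIs and at most 10% mitochondrial UMIs were kept, and doublets were removed per library with Scrublet (expected rate 6%), which left 18281 cells. Counts were scaled to 10000 per cell and clustered with scanpy 1.11.5 (2000 variable genes, 30 principal components, 15 neighbours, Leiden resolution 1, seed 1, igraph 0.11.9). The 116 member and pathway genes were kept out of the clustering genes. A cluster was named only where at least 3 markers of a class exceeded the remaining cells 2-fold and had a UMI in 25% of its cells, and where no other class had more markers among its 10 leading genes. Clusters 10 and 25, with endothelial markers, and cluster 6, with LepR stroma markers, missed that check and are given by number. Members were left at the authors' gene assignment.

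For each class and library the UMIs of a gene were summed over cells and scaled to a class total of 1000000 (CPM), with exact Poisson intervals. Ratios between libraries carry exact conditional binomial intervals, and log2 ratios used a pseudocount of 1 CPM. Every interval is at 95% and covers counting error only. With 1 library per group there was no test. Shares of cells with a UMI are also given after thinning cells to 4000 or 2000 UMIs. Pathway genes are named where they were called at a mean of at least 20 CPM in the day 40 comparison, up to 4 per list by size of change, and any other is named as chosen after its values were seen. Likeness was Pearson's r of log2(CPM + 1) over the class and library combinations with at least 50 cells. The counting code was tested on simulated data. The members and gene lists were chosen with earlier results of these data known. Alternatives covered scaling, cell filters, doublet removal, clustering, the call rule, the comparator and the class makeup. Cells were clustered anew under each other cell filter and without doublet removal. Python 3.11.15, numpy 2.4.6, scipy 1.17.1, pandas 2.3.3, anndata 0.12.19 and matplotlib 3.10.9 were used.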

Additional observations from a re-analysis of the deposited data

Results flagged for a closer look

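Il1rn of chondrocyte-like cells moved in opposite directions in the comparisons at the 2 times: its log2 ratio was 0.82 in the day 40 graft over the sham and -1.37 in the day 19 graft over the control. All 4 levels were low, between 3.30 and 10.4 CPM. Il6st of endothelial cluster 10 did likewise, with -0.85 at day 40 and 0.63 at day 19. Each contrast has its own comparator and 1 library a group, and the difference between the contrasts was not tested.

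The antibody-derived features, which enter no value above, held 2999760 UMIs in the sham library and 6627123 in the day 40 graft library, in 2 features each. The labels do not say what they tag.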

How the results depend on the processing

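No paired analysis was possible because each group has 1 library. Of 266 alternative log2 ratios, 157 stayed within the counting interval of the reported value, 105 moved outside it and 4 changed sign, and of the 94 that belong to called values 75 kept their call. The sign changes were Il6st in mesenchymal stroma at day 40 with the control as comparator (0.029), and, with the makeup of the comparator library, Il1r1 (0.041) and Il1rn (0.18) in mesenchymal stroma at day 19 and Il1r1 in LepR-like stroma at day 40 (0.15). The 2 mesenchymal calls at day 40 became 1, Il1r1, under median-of-ratios scaling, totals without dominant genes, the mean over cells, the looser cell filter and a 2-fold threshold. They became 5 with no minimum CPM and 0 with the makeup of the sham. The 2 at day 19 became 0 under the mean over cells and at 2-fold, 4 with no minimum CPM, and 1, Il6st higher, with the makeup of the control. The 1 endothelial call at day 40 became 2 under the mean over cells, with no minimum CPM (Il1rap higher in both) and without doublet removal (Il1rn higher), and 0 with the makeup of the sham. No alternative called a member in the endothelium at day 19. Pooling clusters 10 and 25 with the endothelium, cluster 6 with the LepR-like class and taking clusters 7 or 16 alone were added after seeing the data. The lower depth of the control limits its shares of cells most, and Il6, Lif and Il33 are too rare outside the cells named to compare.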
